A study of Mus musculus with 48 samples.

Results

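The circadian clock genes described here are 10 of the 30743 genes in the deposited table of mouse cardiomyocyte RNA-seq: Dbp, Tef, Per1, Per2, Per3, Nr1d1, Nr1d2, Arntl, Npas2 and Bhlhe41. They were chosen by name as components and close outputs of the clock, with results of these libraries already known, so their contrasts between groups are given as a description. All 10 passed the filter on low counts in every fit.

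The clock of mammalian cells is a transcriptional feedback loop. BMAL1, the product of Arntl, pairs with CLOCK or with its relative NPAS2 and activates genes that carry E-boxes, among them the Per genes, Nr1d1, Nr1d2, Dbp, Tef and Bhlhe41. The PER proteins repress that pair, BHLHE41 competes with it at E-boxes, and the nuclear receptors REV-ERB alpha and beta, made by Nr1d1 and Nr1d2, repress Arntl and Npas2 through ROR elements. DBP and TEF are activators of the PAR bZIP family and act through D-boxes. In mouse tissues, the heart included, Arntl and Npas2 mRNA is known to peak at nearly the opposite time of day from Dbp and the Per genes.

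The study used mitochondrial-nuclear exchange (MNX) mice, which carry the nuclear genome of one inbred strain and the mitochondrial genome of another, here C57BL/6J and C3H/HeN, beside both wild types. Left ventricular cardiomyocytes were obtained by collagenase perfusion after the right ventricle and atria had been removed. One set of 24 libraries, 3 per group, came from mice 3 days after ACF or sham surgery. ACF commonly stands for an aortocaval fistula, a shunt that overloads the heart with volume. These groups are titled C3H_MNX (genotype label C57n:C3Hmt), C57_MNX (genotype label C3Hn:C57mt), C3H_wt and C57_wt. Of the 4776 genes that differed between nuclear genomes in the other set, 88.3% after ACF and 93.3% after sham differed between C3H_MNX and C57_MNX in the direction of the strain in the title, against the nuclear genome in the genotype label. These libraries are therefore called by their titles. Another 24 libraries, 6 per group, have no surgery word in their titles and a day-3 sham label: C3Hn-C57mt, C57n-C3Hmt, C3H_WT and C57_WT. They are called the second set below, and the other 24 the surgery set. Age is not given in the sources used here, nor is the clock time of isolation, so no level below can be placed at a time of day.

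Of the 10 genes, 9 had entries in the RefSeq promoter table of GRCm38.p6, with 12 promoters in all, each a window of 250 bases before to 50 bases after the gene start. These windows were searched on both strands for the E-box CACGTG, the D-box TTANGTAA and the ROR element TAGGTCA. The 5 windows below are shown because each holds 1 of these clock motifs, which stand in capitals. Positions count from the gene start. Tef is at chr15:81802423-81802722 (plus strand), Per1 at chr11:69098699-69098998 (plus), Bhlhe41 at chr6:145865371-145865670 (minus), Per3 at chr4:151044616-151044915 (minus) and Arntl at chr7:113207261-113207560 (plus, the second of its promoters).
Tef: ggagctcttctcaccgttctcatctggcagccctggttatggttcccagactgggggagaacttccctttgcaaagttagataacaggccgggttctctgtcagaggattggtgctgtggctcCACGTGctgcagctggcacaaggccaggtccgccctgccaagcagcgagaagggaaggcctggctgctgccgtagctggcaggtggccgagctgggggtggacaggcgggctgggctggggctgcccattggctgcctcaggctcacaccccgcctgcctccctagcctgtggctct
Per1: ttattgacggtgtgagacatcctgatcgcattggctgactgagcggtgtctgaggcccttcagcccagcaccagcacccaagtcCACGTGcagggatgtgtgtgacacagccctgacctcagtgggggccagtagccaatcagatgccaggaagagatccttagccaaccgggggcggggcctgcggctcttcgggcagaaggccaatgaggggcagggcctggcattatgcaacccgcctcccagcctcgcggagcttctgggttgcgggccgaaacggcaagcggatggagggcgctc
Bhlhe41: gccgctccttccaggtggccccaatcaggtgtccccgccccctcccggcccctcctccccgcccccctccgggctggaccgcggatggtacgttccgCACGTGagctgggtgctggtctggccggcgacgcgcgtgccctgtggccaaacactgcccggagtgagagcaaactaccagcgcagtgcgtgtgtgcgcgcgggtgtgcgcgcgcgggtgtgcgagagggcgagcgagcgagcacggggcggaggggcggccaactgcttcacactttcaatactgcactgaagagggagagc
Per3: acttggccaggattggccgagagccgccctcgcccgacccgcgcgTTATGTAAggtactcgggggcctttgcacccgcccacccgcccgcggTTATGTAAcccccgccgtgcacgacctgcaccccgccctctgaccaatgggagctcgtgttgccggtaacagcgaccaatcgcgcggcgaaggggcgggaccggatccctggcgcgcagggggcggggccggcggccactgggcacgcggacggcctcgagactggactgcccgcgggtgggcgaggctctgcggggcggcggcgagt
Arntl: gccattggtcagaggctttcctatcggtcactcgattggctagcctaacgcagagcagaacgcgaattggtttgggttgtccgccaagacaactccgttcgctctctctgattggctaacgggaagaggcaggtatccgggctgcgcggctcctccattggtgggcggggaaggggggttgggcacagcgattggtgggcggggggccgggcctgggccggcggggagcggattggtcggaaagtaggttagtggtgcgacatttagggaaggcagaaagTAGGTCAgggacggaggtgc

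The E-box begins at -127 in the Tef window, -166 in the Per1 window and -153 in the Bhlhe41 window. Another Tef window (chr15:81811164-81811463, plus strand) holds an E-box at -138, so 4 of the 12 windows hold this motif, as do 7.15% of the 32851 promoters in the table. The D-box stands at -205 and again at -158 in the Per3 window, and in no other window of the 10 genes, beside 2.32% of all promoters. The ROR element was found at position 30 in the Arntl window alone, beside 2.61% of all promoters. The windows of Dbp, Nr1d1, Nr1d2 and Npas2 hold none of these letters.

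Libraries held 15.9 to 20.8 M counts in the surgery set and 16.0 to 26.1 M in the second set. Library 489, of C57_wt ACF, stood apart from the other libraries of its set. Its summed marker level for erythrocytes was 16.2 log2 CPM (library-scaled counts on a log2 scale), against 2.43 to 8.26, and its cardiomyocyte level was 13.0, against 15.1 to 16.1. It also sets part of the spread shared by every fit on the surgery set, so values without it follow the results of that set. Annotation overlaps with another gene were found for 6 of the 10 genes, among them Dbp with Sphk2, Nr1d1 with Thra and Per3 with Uts2. The kit marked strand, but the strand setting of the counting is not given in the sources used here, so part of these counts may come from the overlapping gene.

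Clock genes spread widely between libraries of the same group in the second set. Arntl mRNA spanned 21.1-fold between its lowest and highest library there, Per2 20.1-fold and Dbp 16.4-fold, while Nr1d1 spanned 2.07-fold. The within-group standard deviation of log2 CPM was 1.35 for Arntl, 1.16 for Per2 and 1.05 for Dbp, ranks 23, 39 and 55 among 13395 genes. The median gene had 0.235. Per3 followed with 0.827, Npas2 with 0.694, Per1 with 0.598, Bhlhe41 with 0.550, Tef with 0.490, Nr1d2 with 0.424 and Nr1d1 with 0.269, so all 10 lay above the median gene. Npas2 rested on only 17 to 103 counts per library and Arntl on 23 to 564, which limits how finely their low levels can be told apart.

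Dbp, the PAR bZIP activator, had a lowest, median and highest level of 4.46, 5.47 and 6.31 log2 CPM in C3Hn-C57mt cardiomyocytes, against 3.35, 4.37 and 4.63 in C3H_WT. It had 4.42, 4.79 and 6.21 log2 CPM in C57n-C3Hmt, against 2.28, 3.95 and 6.16 in C57_WT. Groups of the same nuclear genome overlapped in both cases. Arntl, of the activating arm of the loop, had 0.31, 2.67 and 3.35 log2 CPM in C3Hn-C57mt, against 3.16, 3.29 and 4.14 in C3H_WT. In C57n-C3Hmt it had -0.00, 3.21 and 3.67 log2 CPM, against 0.55, 3.70 and 4.40 in C57_WT. The C3H_WT libraries all kept a high Arntl level, and each of the other groups held libraries far below its own median.

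**Figure D1:**
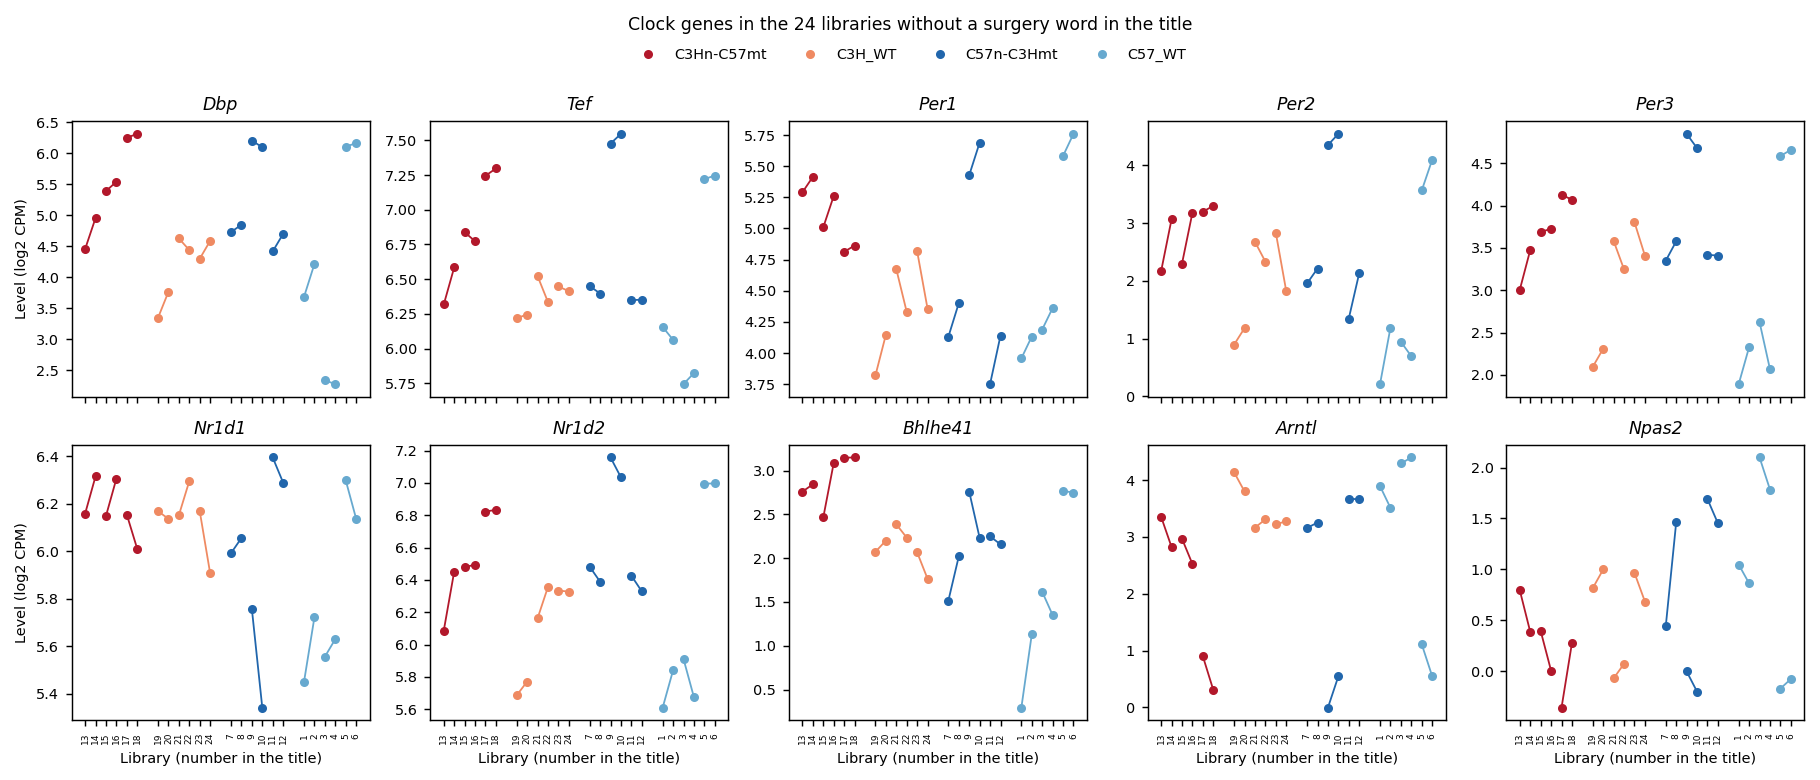
Level of each clock gene (log2 CPM, vertical axis) in the 24 libraries of the second set, 6 per group. Points are libraries, and lines join libraries of consecutive title numbers. The Arntl and Dbp points spread over several log2 units within groups, and the Nr1d1 points stay close together.

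Libraries with low Arntl were the same ones that had high Dbp, and they came in consecutive title numbers. Numbers 5 and 6 of C57_WT had 6.11 and 6.16 log2 CPM of Dbp and 1.11 and 0.55 of Arntl. Numbers 9 and 10 of C57n-C3Hmt had 6.21 and 6.10 log2 CPM of Dbp and -0.00 and 0.55 of Arntl. Numbers 17 and 18 of C3Hn-C57mt had 6.25 and 6.31 log2 CPM of Dbp and 0.90 and 0.31 of Arntl. These 6 libraries formed a cluster at -0.00 to 1.11 log2 CPM of Arntl, and the other 18 lay between 2.52 and 4.40. At the other extreme, numbers 3 and 4 of C57_WT had 2.34 and 2.28 log2 CPM of Dbp and 4.29 and 4.40 of Arntl. Within the C57_WT group, both ends of the observed range were thus present. Per2, a repressor of the loop, had 3.57 and 4.10 log2 CPM in numbers 5 and 6 and 4.35 and 4.55 in numbers 9 and 10, against 0.95 and 0.70 in numbers 3 and 4.

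**Figure D2:**
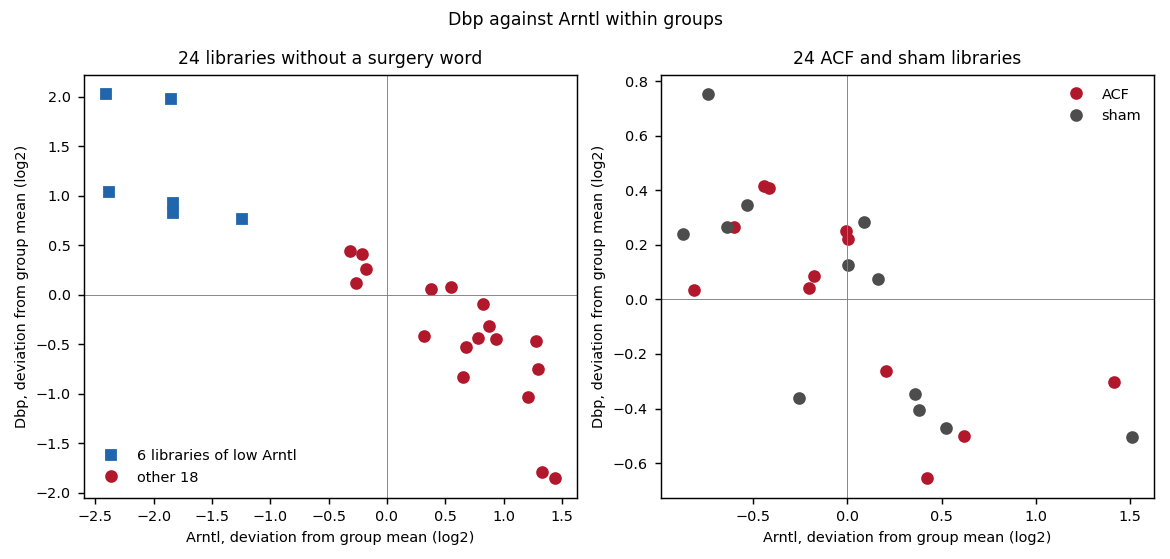
Dbp (vertical axis) against Arntl (horizontal axis) in each library, both as the deviation from the group mean in log2 units. The second set is on the left, with 6 libraries of low Arntl marked apart from the other 18. The surgery set is on the right, with ACF and sham in different colours. Libraries far above their group mean in Dbp tend to lie below it in Arntl. In the second set 6 libraries form a separate cluster at low Arntl.

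The likeness of consecutive numbers was seen in the values, and it is given as a description with no test. The title numbers of this set make 12 pairs of consecutive numbers, 3 per group. The median absolute difference in Dbp was 0.169 log2 units within a pair, against 1.26 between pairs of the same group. It was 0.0595 within a pair, against 0.457 between pairs, for Tef, and 0.359 against 1.30 for Arntl. Differences between pairs took 98.6% of the within-group variation of Tef, 97.8% of that of Dbp and 97.6% of that of Arntl, ranks 1, 2 and 3 of 13395 genes. The share was 95.9% for Per3, 95.5% for Nr1d2, 93.7% for Per1, 91.0% for Per2, 88.9% for Npas2, 84.8% for Bhlhe41 and 84.4% for Nr1d1. The median over all genes was 64.1%, and 7 of the 10 clock genes exceeded 90%, beside 1.98% of all genes. Both numbers of a pair also carried the same L code in the title (the letter L and a digit, whose meaning the labels do not give), and in C57n-C3Hmt and C3Hn-C57mt the codes differed between some pairs. All 3 pairs of C57_WT carried L8, with Dbp at 2.28 to 6.16 log2 CPM, and all 3 of C3H_WT carried L3, so pairs also differed within 1 L code. Whether a pair shares a day, a time of isolation or another step was not tested.

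**Figure D3:**
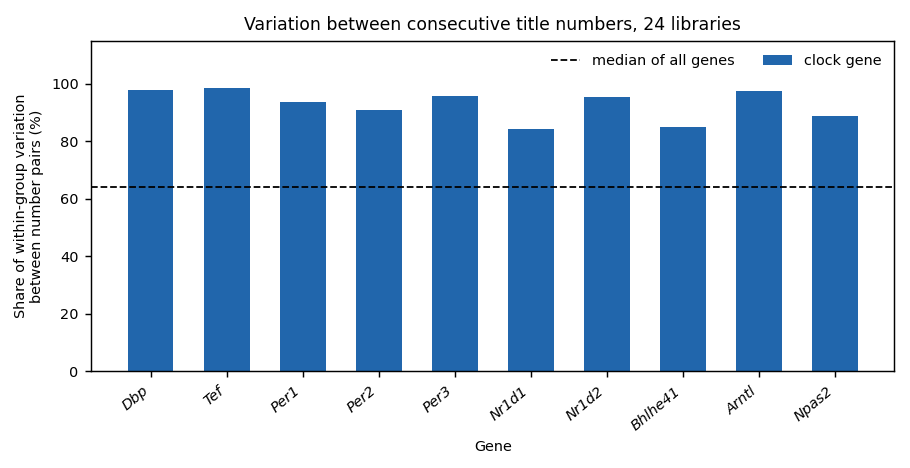
Share of the within-group variation of log2 CPM that lies between pairs of consecutive title numbers (percent), for each clock gene in the 24 libraries of the second set; the dashed line is the median of all 13395 genes, 64.1%. All bars stand above the line, with Tef, Dbp and Arntl highest.

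Covariation between genes was measured on log2 CPM after each group's mean had been removed, which makes it independent of differences between groups. Because of the separate cluster at low Arntl, the pooled correlation over 24 libraries is not given, and values are for the other 18. Dbp and Arntl were opposed, with Pearson r = -0.88 and Spearman rho = -0.85 (permutation p = 4e-05, 2-sided, 0.0018 after adjustment over the 45 gene pairs). Leaving out the 2 libraries farthest from the median gave r = -0.85. Dbp and its relative Tef moved together, with r = 0.84, rho = 0.89 and a permutation p of 0.00795 after adjustment, and r = 0.89 without the 2 farthest libraries. Of the 45 pairs, 14 passed an adjusted permutation p of 0.05, 7 with a positive and 7 with a negative r. The permutation moved single libraries, although 84.4% (Nr1d1) to 98.6% (Tef) of within-group variation lay between number pairs over all 24 libraries. Libraries of consecutive numbers thus do not count as separate, so these p-values are likely too small and are given as a description. Whole number pairs were not permuted. Over the 9 means of number pairs r was -0.91 for Dbp and Arntl and 0.94 for Dbp and Tef. Without the low-Arntl cluster each group but C3H_WT holds only 2 of these means, which mirror each other around the group mean. Few free values are therefore left, and no test was run on the means.

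Some of the repressors were alike as well, and the same limit holds for the p-values of these 18 libraries. Per3 and Nr1d2, the gene of REV-ERB beta, had r = 0.91 (adjusted permutation p = 0.0127), Per2 and Per3 had r = 0.84 (adjusted permutation p = 0.0099), and Per1 and Per2 had r = 0.83 (adjusted permutation p = 0.00765). Without the 2 farthest libraries these came to 0.70, 0.61 and 0.71, so part of their size rests on those libraries. Arntl and Npas2, whose proteins are partners, had r = 0.72 (adjusted permutation p = 0.0177), and 0.75 without the 2 farthest. Arntl was opposed to Tef with r = -0.76 (adjusted permutation p = 0.0127) and to Per3 with r = -0.67 (adjusted permutation p = 0.0329). The value for Arntl and Per3 went to -0.32 without the 2 farthest libraries and rests on them. Nr1d1, the gene of REV-ERB alpha, had r = -0.05 with Dbp, and its highest r was with Bhlhe41, at 0.64 (adjusted permutation p = 0.0191).

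In the surgery set titles hold other numbers, and the libraries are not in consecutive pairs throughout. Arntl was again opposed there to Dbp, Per3 and Tef, and less so to Nr1d2 (r = -0.45, adjusted permutation p = 0.0256). Its r with Per2 (-0.61), Nr1d1 (0.32), Per1 (0.13) and Bhlhe41 (-0.13) did not pass. Arntl and Dbp had r = -0.73 and rho = -0.73 over 24 libraries (permutation p = 0.00057, adjusted 0.0128), and -0.73 without the 2 farthest. Arntl and Per3 had r = -0.82 and rho = -0.80 (permutation p = 7e-05, adjusted 0.00315), and -0.81 without the 2 farthest. Arntl and Tef had r = -0.76, and Tef and Nr1d2 had r = 0.64, both with an adjusted permutation p of 0.017. In all, 6 of 45 pairs passed with library 489 and 9 without it. Without it Arntl and Per3 had r = -0.85 (permutation p = 1e-05, the smallest that 1e+05 resamples can give, adjusted 0.00045), Per3 and Nr1d2 had r = 0.71 (adjusted permutation p = 0.0102), and Tef and Per2 had r = 0.92 (adjusted permutation p = 0.00945). Dbp and Tef, close companions in the other set, had r = 0.41 here without library 489, and this did not pass. With differences between L codes removed as well, the Dbp and Arntl value was -0.95 (adjusted permutation p = 0.633), a fit with few free values left. That permutation moved libraries only within a group and L code, and only the C3H_MNX ACF libraries share both. No pair of genes could pass it, so it cannot tell whether the opposition holds with L codes removed.

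**Figure D4:**
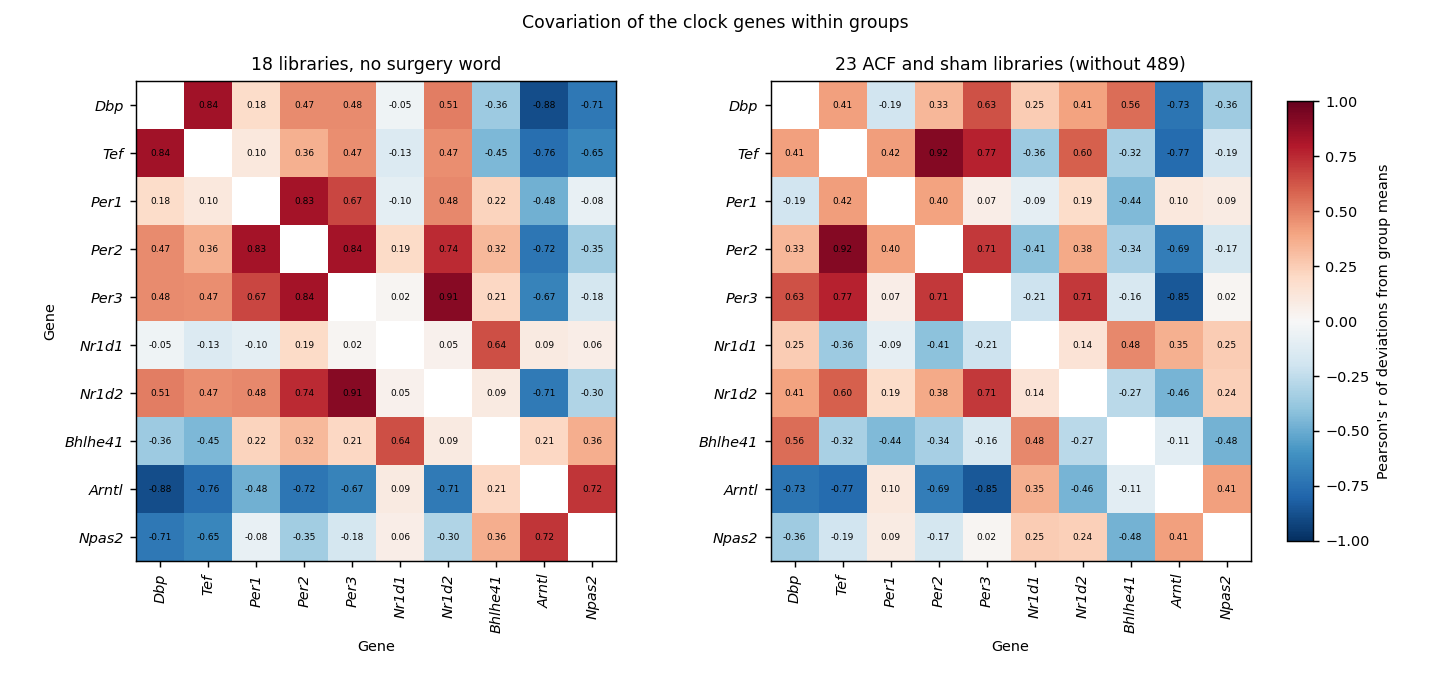
Pearson r between clock genes (rows and columns) of log2 CPM with group means removed, in 18 libraries of the second set (left) and 23 of the surgery set (right); red is positive and blue negative. In both panels Arntl is negative against Dbp, Tef and Per3, and in the left panel Nr1d1 is weakly related to every gene but Bhlhe41.

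The first principal component of the 10 centred levels took 86.6% of their variation over all 24 libraries of the second set, the low-Arntl cluster included, beside 23.6% for all genes. Arntl had the loading of largest size, -0.55, Npas2 had -0.25, and Nr1d1 had 0.01. In the surgery set the share was 48.8%, beside 53.0% for all genes, and 56.3% beside 30.8% without library 489. A share over 10 genes and one over all genes rest on unlike numbers of genes, so they are not directly comparable. The range over libraries was narrower in the surgery set for 7 of the 10 genes, Arntl (9.78-fold) and Dbp (6.09-fold) among them. It was wider there for Per1 (4.85-fold, against 4.02-fold in the second set), Nr1d1 (2.63-fold, against 2.07-fold) and Bhlhe41 (7.80-fold, against 7.24-fold). Library 489 held the highest Per1 level and the lowest Bhlhe41 level of the surgery set. Without it Per1 ran from 3.99 to 5.53 log2 CPM, against 3.75 to 5.76 in the second set. Bhlhe41 then ran from 1.53 to 3.29 log2 CPM, against 0.29 to 3.15, so both ranges were narrower without library 489. The within-group SD of Arntl was 0.772 log2 units without library 489, rank 478 of 13440 genes, and rank 1410 with it. Without library 489 it was 0.558 for Per2, 0.530 for Npas2, 0.476 for Per3, 0.453 for Dbp, 0.387 for Per1 and 0.349 for Nr1d1. Bhlhe41 (0.283) and Tef (0.276) lay close to the median gene (0.260), and Nr1d2 (0.207) lay below it.

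The surgery set holds 10 pairs of neighbouring title numbers, and their Arntl levels differed by 0.016 to 2.47 log2 units. Arntl had 0.85 and 0.64 log2 CPM in libraries 6692 and 6693, both C57_MNX ACF, and 2.10 and 2.12 in libraries 465 (C57_wt ACF) and 464 (C57_wt sham). C57_MNX libraries 6658 (ACF) and 6659 (sham) had 2.87 and 3.44 log2 CPM, each far above the other 2 of its group. Surgery differed between libraries 464 and 465, whose Arntl levels were 0.016 log2 units apart, and between 6658 and 6659, which were 0.57 apart. Library 486 (C3H_wt ACF) and its neighbour 485 (C3H_wt sham) were far apart, with 3.93 and 1.47 log2 CPM of Arntl and 3.07 and 5.46 of Dbp. Libraries 6650 (C3H_MNX ACF) and 6649 (C3H_MNX sham) had 3.45 and 2.13 log2 CPM of Arntl and 4.02 and 5.31 of Dbp. Libraries 482 and 483, both C3H_wt sham, also differed, with 0.93 and 1.99 log2 CPM of Arntl and 5.68 and 4.86 of Dbp.

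ACF surgery was set against sham within each title strain, and the clock genes separated the libraries most in C3H_wt. Dbp had 4.13, 3.98 and 3.07 log2 CPM in C3H_wt ACF cardiomyocytes, against 5.68, 4.86 and 5.46 in C3H_wt sham. All ACF libraries lay below all sham libraries. The log2 fold change was -1.58 (SE 0.342, 3 libraries against 3, adjusted p = 0.139 by edgeR's quasi-likelihood test). Leaving out library 489, which belongs to another strain but sets the shared spread, gave -1.59 with an adjusted p of 0.0404 by the same edgeR test, and DESeq2 gave an adjusted p of 0.00408 with all libraries. Among all genes 0% passed the edgeR threshold, 0.509% without library 489 and 0.610% with DESeq2. Since Dbp was picked with this contrast known, the values describe it and lend no support.

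Tef, the relative of Dbp, had 6.26, 6.28 and 6.56 log2 CPM in C3H_wt ACF, against 7.24, 6.97 and 7.19 in C3H_wt sham, a log2 fold change of -0.77 (SE 0.229, adjusted p = 0.325 by edgeR). Per3 had 3.74, 3.67 and 2.95 log2 CPM in C3H_wt ACF, against 4.91, 4.54 and 4.83 in C3H_wt sham, a log2 fold change of -1.28 (SE 0.369, adjusted p = 0.301 by edgeR). Neither group overlapped its sham group. Nr1d2 had 6.20, 6.50 and 6.15 log2 CPM in C3H_wt ACF, against 6.98, 6.98 and 6.92 in C3H_wt sham, a log2 fold change of -0.67 (SE 0.191, adjusted p = 0.299 by edgeR). Bhlhe41 had 2.32, 2.30 and 1.85 log2 CPM in C3H_wt ACF, against 3.29, 2.88 and 2.69 in C3H_wt sham, a log2 fold change of -0.82 (SE 0.339, adjusted p = 0.583 by edgeR). Without library 489 the edgeR adjusted p was 0.103 for Tef, 0.105 for Per3, 0.0750 for Nr1d2 and 0.0918 for Bhlhe41. With Dbp, these made 5 of 10 genes whose ACF libraries all lay below sham, beside 10.3% of all genes.

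Arntl and Npas2 went the other way. Arntl had 3.10, 3.50 and 3.93 log2 CPM in C3H_wt ACF, against 0.93, 1.99 and 1.47 in C3H_wt sham, a log2 fold change of 2.06 (SE 0.583, adjusted p by edgeR = 0.292, and 0.102 without library 489). Npas2 had 0.81, 0.91 and 0.56 log2 CPM in C3H_wt ACF, against -0.12, -0.33 and 0.07 in C3H_wt sham, a log2 fold change of 0.96 (SE 0.467, adjusted p by edgeR = 0.719, and 0.373 without library 489). Both had every ACF library above every sham library, beside 12.9% of all genes. Per1, Per2 and Nr1d1 overlapped between surgeries in this strain. Per1 had 4.11, 4.55 and 5.23 log2 CPM in C3H_wt ACF, against 4.62, 4.29 and 4.94 in C3H_wt sham. Per2 had 3.65, 3.54 and 4.08 log2 CPM in C3H_wt ACF, against 3.88, 3.57 and 4.08 in C3H_wt sham. Nr1d1 had 5.72, 5.83 and 5.36 log2 CPM in C3H_wt ACF, against 6.22, 5.85 and 5.60 in C3H_wt sham.

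Over the 10 genes the median log2 fold change in C3H_wt was -0.46, beside -0.00 for all genes, and 6 of 10 had an unadjusted p under 0.05 (1 higher, 5 lower), beside 7.08% of all genes. Without library 489 these were 7 of 10, beside 13.0%. In bulk RNA, fewer cells of a type and less RNA per cell cannot be told apart. The erythrocyte markers (3 of 5 in the file, none at 0 in all libraries of either group) summed to 4.40 to 6.15 log2 CPM in C3H_wt ACF, against 6.13 to 7.69 in C3H_wt sham, while cardiomyocyte markers summed to 15.5 to 15.8, against 15.4 to 15.7. The part of the erythrocyte level in the clock values was not tested. The L codes differ between all 6 of these libraries, and a fit with the L code as a covariate gave a log2 fold change of -1.52 for Dbp (edgeR adjusted p = 0.607) and 2.39 for Arntl (edgeR adjusted p = 0.649).

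**Figure D5:**
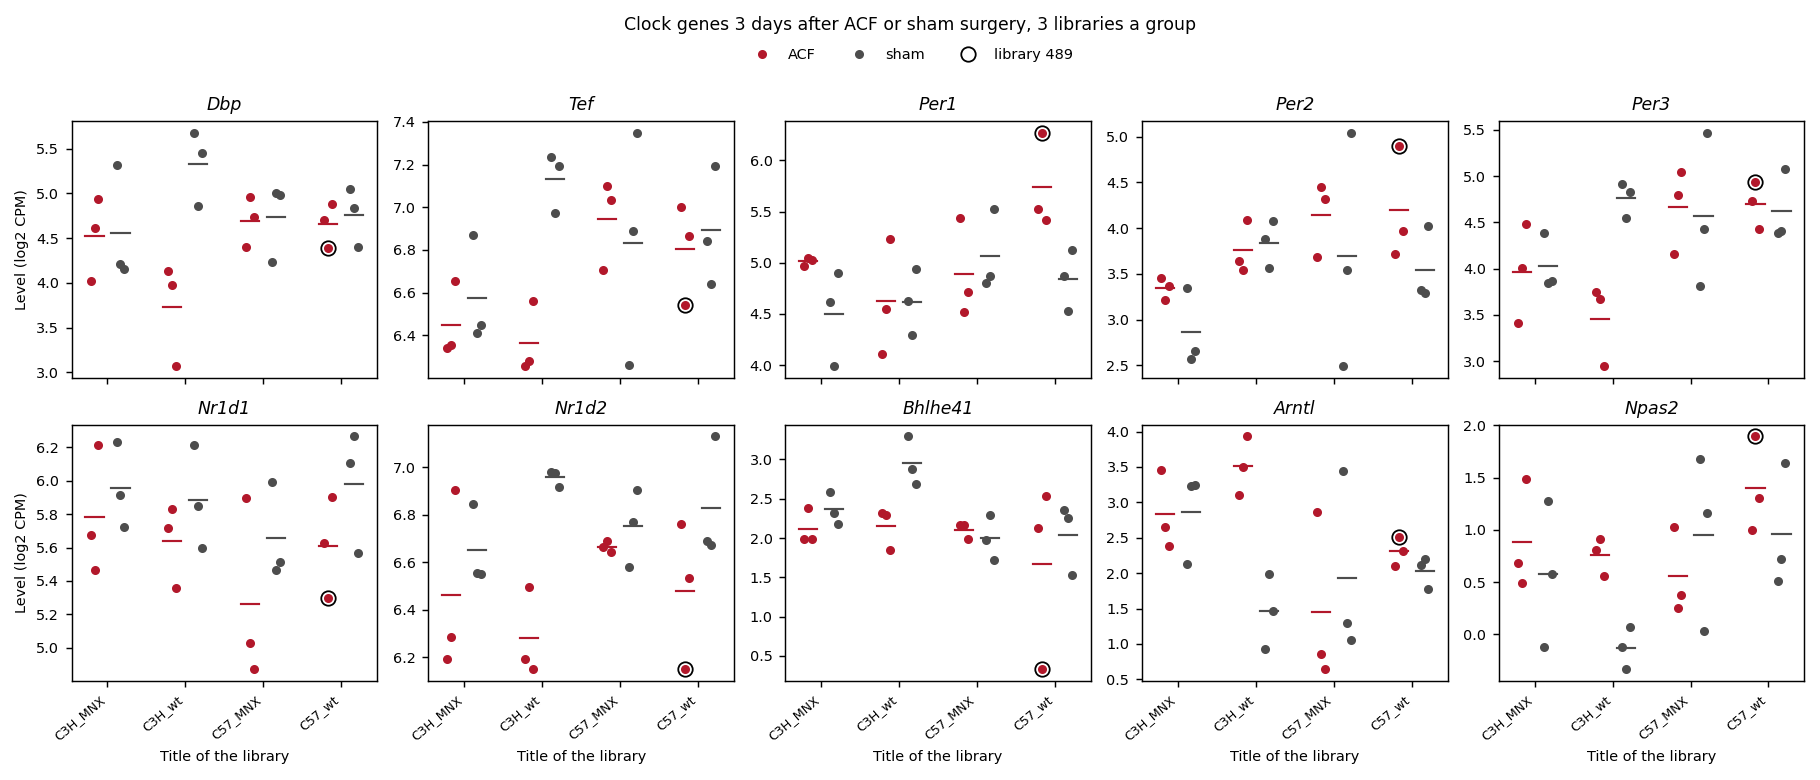
Level of each clock gene (log2 CPM, vertical axis) in the 24 libraries of the surgery set, 3 per group, with ACF beside sham within each title strain; points are libraries and bars are group means. In C3H_wt the ACF points of Dbp, Tef, Per3, Nr1d2 and Bhlhe41 lie below the sham points, and those of Arntl and Npas2 lie above.

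The other strains gave small differences in Dbp. It had 4.02, 4.61 and 4.94 log2 CPM in C3H_MNX ACF, against 5.31, 4.21 and 4.15 in C3H_MNX sham, a log2 fold change of -0.08. In C57_MNX it had 4.40, 4.97 and 4.73 log2 CPM after ACF, against 4.24, 5.01 and 4.98 after sham, a log2 fold change of -0.07. In C57_wt it had 4.70, 4.39 and 4.88 log2 CPM after ACF, against 5.05, 4.84 and 4.40 after sham, a log2 fold change of -0.09. ACF and sham overlapped in each of these strains. The log2 fold change of Arntl was -0.04 in C3H_MNX, -0.57 in C57_MNX and 0.31 in C57_wt. Without library 489 the C57_wt values were 0.012 for Dbp and 0.18 for Arntl. None of the 10 genes passed edgeR's threshold in these strains, where 0.00744%, 0% and 0% of all genes passed, nor DESeq2's. At an unadjusted edgeR p under 0.05 the counts were 0, 0 and 1 of 10 in C3H_MNX, C57_MNX and C57_wt, beside 1.71%, 2.04% and 15.1% of all genes. Without library 489 they were 0, 0 and 0 of 10, beside 5.38%, 4.00% and 4.07%.

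The ACF difference of Dbp in C3H_wt minus that in C57_wt was -1.49 (SE 0.475, edgeR adjusted p = 0.475), and that of Arntl was 1.75 (SE 0.813, edgeR adjusted p = 0.475). No clock gene and 0% of all genes passed edgeR's threshold there, and 4 of 10 had an unadjusted p under 0.05, beside 10.1% of all genes. Without library 489 the difference was -1.60 for Dbp (edgeR adjusted p = 0.904) and 1.87 for Arntl (edgeR adjusted p = 0.916), and 5 of 10 had an unadjusted p under 0.05, beside 5.34%. The test that the 4 strains share 1 ACF difference gave unadjusted edgeR p-values of 0.0105 for Dbp, 0.0259 for Arntl and 0.0477 for Per3, and an adjusted p of 0.932 for each. Unadjusted, 3 of 10 were under 0.05, beside 3.03% of all genes, and 5 of 10, beside 3.73%, without library 489, where the adjusted p was 0.927 for each of the 5. A difference between strains in the ACF response was therefore not shown.

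Per1, a clock repressor also known to respond to glucocorticoids and acute stimuli, was the only one of the 10 genes without overlap in C3H_MNX and in C57_wt. It had 4.96, 5.05 and 5.02 log2 CPM in C3H_MNX ACF, against 4.62, 3.99 and 4.90 in C3H_MNX sham, a log2 fold change of 0.48 (SE 0.324). In C57_wt it had 5.53, 6.27 and 5.41 log2 CPM after ACF, against 4.87, 4.53 and 5.13 after sham, a log2 fold change of 0.97 (SE 0.325, adjusted p = 0.198 by edgeR). In both strains every ACF library lay above every sham library, beside 4.90% of all genes in C3H_MNX and 4.05% in C57_wt. The highest value is that of library 489, and without it the log2 fold change in C57_wt was 0.62 and 11.2% of all genes were placed in this way. In C57_MNX Per1 had 5.43, 4.52 and 4.72 log2 CPM after ACF, against 4.81, 4.87 and 5.52 after sham, a log2 fold change of -0.17 (SE 0.325) with overlap.

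Averaged over the 4 strains, Nr1d2 had a log2 fold change of -0.31 after ACF (SE 0.0954, edgeR adjusted p = 0.188) and Dbp one of -0.46 (SE 0.168, edgeR adjusted p = 0.285). DESeq2 called Nr1d2 alone among the 10, with an adjusted p of 0.0496. The edgeR threshold was passed by 0 of 10 clock genes and 0.275% of all genes, and DESeq2's by 1.82%. The median over the 10 was -0.25, beside 0.00 for all genes, and 2 of 10 had an unadjusted p under 0.05, beside 11.3%. Without library 489 the average was -0.28 for Nr1d2 (edgeR adjusted p = 0.154) and -0.43 for Dbp (edgeR adjusted p = 0.270), and 2 of 10, beside 12.6%, were under 0.05 unadjusted.

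Among sham libraries of the surgery set, C3H_MNX was set against C3H_wt, and 6 of the 10 genes did not overlap. Arntl had 2.13, 3.23 and 3.25 log2 CPM in C3H_MNX sham, against 0.93, 1.99 and 1.47 in C3H_wt sham, with no overlap and a log2 fold change of 1.44 (SE 0.579, adjusted p = 1 by edgeR, and 0.995 without library 489). Higher levels without overlap were found for 6.79% of all genes. Tef, Per2, Per3, Nr1d2 and Bhlhe41 lay below without overlap, as did 5.01% of all genes, with log2 fold changes of -0.57, -0.98, -0.74, -0.32 and -0.63. None of the 10 passed edgeR's threshold, beside 0.0149% of all genes, and 4 had an unadjusted p under 0.05, beside 1.47%. Without library 489, in none of these groups, the unadjusted count was 6, beside 2.83%. This contrast shares the C3H_wt sham libraries with the ACF contrast of that strain, so the values of both rest on the same 3 libraries. In the sham comparison of C57_MNX with C57_wt, log2 fold changes ran from -0.32 for Nr1d1 to 0.51 for Per2 and no clock gene was free of overlap. There 0% of all genes passed edgeR's threshold.

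In the second set, C3Hn-C57mt was set against C3H_WT, and Bhlhe41 alone of the 10 genes did not overlap. The log2 fold change was 1.39 for Dbp (SE 0.53, edgeR adjusted p = 0.472), 0.73 for Per1 (SE 0.314) and -1.06 for Arntl (SE 0.590). Bhlhe41 had a lowest, median and highest level of 2.47, 2.97 and 3.15 log2 CPM in C3Hn-C57mt, against 1.77, 2.14 and 2.39 in C3H_WT. The groups did not overlap, as for 0.202% of all genes in this direction, and the log2 fold change was 0.81 (SE 0.274, edgeR adjusted p = 0.472). None of the 10 passed edgeR's or DESeq2's threshold, beside 0.00747% of all genes for edgeR, and 3 had an unadjusted p under 0.05, beside 9.38%. For C57n-C3Hmt minus C57_WT the log2 fold change was 0.42 for Dbp (SE 0.517) and -0.62 for Arntl (SE 0.586), with all 10 genes overlapping, and 0% of all genes passed. Libraries of consecutive numbers are alike, and a group of 6 holds 3 such pairs.

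The contrast of nuclear genomes had the most calls over the whole table and few among the clock genes. Between the 12 C3Hn and the 12 C57n libraries of the second set, 35.7% of all genes and 0 of 10 clock genes passed edgeR's threshold. Closest were Bhlhe41, with a log2 fold change of 0.50 (SE 0.197, adjusted p = 0.0518 by edgeR), Nr1d1, with 0.25 (SE 0.101, edgeR adjusted p = 0.0539), and Npas2, with -0.64 (SE 0.269, edgeR adjusted p = 0.0640). DESeq2 called Npas2 (adjusted p = 0.0419) and Bhlhe41 (adjusted p = 0.0447), beside 36.9% of all genes. With the L code as a covariate the Bhlhe41 value was -0.078. C57_WT libraries all carried code L8 and C3H_WT libraries all L3, so between the wild types strain and code are the same split. Only L2 held both nuclear genomes, in numbers 9 to 12 of C57n-C3Hmt and 13 to 16 of C3Hn-C57mt. Among sham libraries of the surgery set, titles with C3H minus titles with C57 gave 0.62 for Bhlhe41 (SE 0.243, edgeR adjusted p = 0.140) and -0.86 for Npas2 (SE 0.325, edgeR adjusted p = 0.124), where 8.39% of all genes passed. Without library 489 Bhlhe41 was higher in C3H titles by 0.65 with an edgeR adjusted p of 0.00744, beside 15.4% of all genes. Between C3H and C57 mitochondrial genomes no clock gene and 0% of all genes passed edgeR's threshold. There 0 of 10 clock genes had an unadjusted edgeR p under 0.05, beside 4.10% of all genes.

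Other genes of the clock were followed as a list of 15 core components and regulators, of which 13 were in the fits. In C3H_wt, ACF against sham, edgeR called none of these with all libraries, beside 0% of all genes. Without library 489 it called 1 (Nfil3), beside 0.509% of all genes. With all libraries, 5 of the 13 had an unadjusted edgeR p under 0.05, beside 7.08% of all genes. Hlf, the third PAR bZIP activator, had a log2 fold change of -0.98 (edgeR adjusted p = 0.299), and Nfil3, a repressor at D-boxes, had 0.97 (SE 0.221, edgeR adjusted p = 0.169). The list's median was 0.06, beside -0.46 for the 10 clock genes. Between nuclear genomes, genes of this list past edgeR's threshold included the following. Bhlhe40, a relative of Bhlhe41, was higher in C3Hn libraries by 0.61 and Csnk1d, a kinase of PER proteins, by 0.13, while Cry1, a partner of PER, had -0.31 and Timeless -0.70. The within-group variation of this list lay between number pairs to a median of 66.8%, close to the 64.1% of all genes, and 1 of 13 exceeded 90%. The median was 81.6% for the rhythmic outputs described next (3 of 10 above 90%), 79.1% for glucocorticoid-induced genes (2 of 10) and 54.1% for immediate early genes (0 of 12).

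A list of 10 genes known to be rhythmic in the heart had 4 calls by edgeR between nuclear genomes, beside 35.7% of all genes. Kcnip2, a potassium channel subunit, was higher in C3Hn libraries by 0.43 and Pdk4, a pyruvate dehydrogenase kinase, by 0.56, while Nampt, an enzyme of NAD synthesis, had -0.19 and Dgat2, an enzyme of triglyceride synthesis, -0.69. For ACF in C3H_wt the list had no call and a median of -0.02. Glucocorticoid-induced genes had higher values after ACF in that contrast. With all libraries edgeR called none of the 10 and DESeq2 called 3, beside 0% and 0.610% of all genes. The median of these 10 genes was 1.04, and Fkbp5 had a log2 fold change of 2.73, Mt2 2.28 and Mt1 1.81. An unadjusted edgeR p under 0.05 was found for 7 of them, all higher after ACF, beside 7.08% of all genes. The median of 12 immediate early genes in C57_wt was 1.71 after ACF, and 0.75 without library 489. The part of either list in the levels of the clock genes was not tested.

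Over the whole table, the genes whose centred level was most like that of Dbp in the 24 libraries of the second set were Tef, Nr1d2, Mid1ip1, Hlf and Per3. Their r over the 18 libraries outside the low-Arntl cluster was 0.84, 0.51, 0.63, 0.34 and 0.48. The median absolute r of all genes with Dbp was 0.313 in these 18 libraries. In size of r, Hlf exceeded only 54.6% of genes there and Per3 73.7%. The genes most opposed to Dbp were Phc2, Sphk2, Arntl, Adam19 and Ckap4, with -0.79, -0.83, -0.88, -0.74 and -0.85. Sphk2 is the gene that overlaps Dbp in the annotation, and its level ran opposite to that of Dbp. The genes most like Arntl were Adam19, Ckap4, Slc41a3, Sphk2 and Phc2, with r of 0.54, 0.73, 0.85, 0.79 and 0.69. Those most opposed to Arntl were Tef, Rhobtb1, Hlf, Cry2 and Usp2, with -0.76, -0.67, -0.43, -0.39 and -0.55. The median absolute r of all genes with Arntl was 0.247 in the 18 libraries. Nfil3 had r = -0.83 with Dbp and 0.81 with Arntl. These values are over libraries that share pairs of consecutive numbers, and they are given as a description.

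In the surgery set the neighbours were mostly other genes. Genes were ranked over its 24 libraries, and r is given without library 489. Dbp was most like Rftn1 (r = 0.75), followed by Bcam, Wdsub1, Rgma and Dhrs7, and most opposed to Usp32 (r = -0.80), Mast2 (r = -0.79), Cdkn1a (r = -0.75), Mat2a and Impact. Arntl was most like Cstf3 (r = 0.81), followed by Dock5, Stk24, B4galt6 and Ssx2ip, and most opposed to Per3 and Ccdc85b (r = -0.85 each), Tef (r = -0.77), Jam3 and Cpm. Tef was among the 5 genes most opposed to Arntl in both sets. Nfil3 had r = -0.61 with Dbp and 0.35 with Arntl there.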

How the data were processed

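RNA-seq of cardiomyocytes was available for 48 libraries. The authors deposited 1 table of expected counts by gene symbol without normalization, and 13.9% of its values were not whole. Bowtie, RSEM 1.2.0, CASAVA 1.8.2 and the build mm9 are listed in the submitters' processing notes, whereas the labels' protocols describe the provider's own mapping, and which made the table is not settled. Counts were rounded and fitted over the whole table in R 4.3.3 with edgeR 4.0.16 (TMM, filter on low counts by group, quasi-likelihood F test, Benjamini-Hochberg adjustment, threshold 0.05), with 13440 genes in the surgery set and 13395 in the second set. Standard errors are the log2 fold change divided by the square root of F. Levels were computed as log2 CPM (prior count 2), normalized over all 48 libraries, and they compare libraries, not genes. Correlations used levels centred on group means and permutation within groups (1e+05 resamples, Python). Alternatives used DESeq2 1.42.0, other scalings and fits, an L code covariate, and fits without single libraries. The scripts were tested on simulated data.

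Groups came from titles, genotype and treatment labels. Where separate animals are not stated, p-values cover only the spread from library to library, which may be technical. The 10 genes and all lists were chosen with earlier results of these data known. Text names all 10 genes, list members past the threshold or used for a count, and the 5 genes of highest and of lowest r with Dbp and Arntl among those with a mean of at least 2 log2 CPM. One gene of the core list is not reported here. Fkbp5, Mt1, Mt2, Hlf and Nfil3 were named after their values were seen. Promoters are from RefSeq (GRCm38.p6). No coordinates from mm9 are used here.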

Additional observations from a re-analysis of the deposited data

Results flagged for a closer look

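Bhlhe41, the E-box repressor, differed in opposite directions in the 2 sets of libraries when exchanged mice were set against wild types of C3H title or nuclear genome. Its log2 fold change was -0.63 in C3H_MNX sham minus C3H_wt sham, and 0.81 in C3Hn-C57mt minus C3H_WT, and in each case every library of one group lay on the same side of every library of the other. The difference between the 2 sets was not tested.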

How the results depend on the processing

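No paired analysis was possible because the title numbers of one group occur in no other group. Alternatives that leave out no single library were set against the main fit for counts past the threshold, single-gene values and correlations. Of these results, 404 stayed the same, 45 moved, 6 reversed, 10 became stronger and 3 weaker. A count stayed the same if it was equal or close in size. A value stayed the same if it kept its direction and side of the threshold. Correlations without a p-value stayed the same if they kept their direction and were close in size.

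With DESeq2 the clock genes past the threshold were 1 for ACF averaged over strains, 1 for ACF in C3H_wt and 2 between nuclear genomes. Genes of the whole table past it were 244 for the ACF average, 3, 1, 82 and 175 for ACF in C3H_MNX, C57_MNX, C3H_wt and C57_wt, 1 for the test that strains share 1 response, 3 for C3H_wt minus C57_wt, 7 for sham C3H_MNX minus C3H_wt, 1 between mitochondrial genomes, 7 for C3Hn-C57mt minus C3H_WT and 15 for C57n-C3Hmt minus C57_WT. With the L code as a covariate the table gave 0 for ACF in C3H_MNX, 0 for sham C3H_MNX minus C3H_wt, 1399 between nuclear genomes, 3 between mitochondrial genomes and 30 for C3Hn-C57mt minus C3H_WT. With all 48 libraries in 1 model it gave 401 for the ACF average, 0, 112 and 1018 for ACF in C3H_MNX, C3H_wt and C57_wt, 1 for the shared response, 12 for C3H_wt minus C57_wt and 1785 between sham titles, and 1 clock gene between nuclear genomes. Without libraries 489 and 6756 the clock genes past the threshold were 1 for the ACF average, 2 for ACF in C3H_wt (Dbp at -1.59 and Nr1d2 at -0.68) and 1 between sham titles, and the table gave 344, 2, 192 and 1 for the ACF average, C3H_MNX, C3H_wt and C57_wt, 1 for the shared response, 1 for C3H_wt minus C57_wt and 2446 between sham titles. Summing consecutive numbers gave 3166 between nuclear genomes and 0 for C3Hn-C57mt minus C3H_WT. The cause of these moves was not tested.

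Reversed log2 fold changes with the L code covariate were Per1 -0.048, Per2 0.089 and Nr1d1 0.11 for ACF in C3H_wt, Bhlhe41 -0.078 between nuclear genomes and Dbp -0.10 for C57n-C3Hmt minus C57_WT, and Dbp with Nr1d1 had r = 0.025 over 18 libraries with L codes removed. In the surgery set with L codes removed, r was -0.95 for Dbp and Arntl, -0.87 for Tef and Arntl and -0.79 for Per3 and Arntl. None passed the threshold, but none could, because only the C3H_MNX ACF libraries share a group and an L code and could be permuted. Per2 and Per3 had r = 0.71 and passed with DESeq2 size factors. Without the 2 farthest libraries of the surgery set, r was 0.00 for Arntl and Npas2, 0.44 for Per2 and Per3 and 0.08 for Dbp and Nr1d1. In the 18 libraries it was 0.61 for Per2 and Per3, 0.70 for Per3 and Nr1d2 and -0.32 for Per3 and Arntl.

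Fits that each lacked 1 library gave 0 to 1 clock genes for ACF in C3H_wt (Dbp, without library 489), 0 to 3 between nuclear genomes (9 libraries, most without number 5 or 6 of C57_WT), 0 to 1 between sham titles (without 489 or 6695) and 0 to 0 elsewhere. Over the table it gave 12 to 174 for the ACF average, 0 to 1 in C3H_MNX, 0 to 69 in C3H_wt (69 without library 489), 0 to 874 in C57_wt (874 without library 465, 688 without library 490), 0 to 1 for C3H_wt minus C57_wt, 0 to 1 between mitochondrial genomes, 4456 to 5266 between nuclear genomes, 1 to 1 for C3Hn-C57mt minus C3H_WT, 0 to 2 for C57n-C3Hmt minus C57_WT, 897 to 2083 between sham titles, 1 to 2 for sham C3H_MNX minus C3H_wt and 0 to 0 elsewhere. The ACF value in C3H_wt reversed for Per2 (range -0.27 to 0.040, above 0 without 471 or 485) and Per1 (range -0.30 to 0.29, below 0 without 486 or 483). Counts of 11 to 53 per library in the surgery set and 17 to 103 in the second set limit Npas2 most.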
